A study of Mus musculus with 32 samples.

Results

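Mouse embryonic stem cells kept with the liver X receptor (LXR) agonist T0901317 (NrESC) were compared with untreated cells (ESC) at passage 10. The libraries were chosen by their labels alone, as those of either arm at passage 10, which gave 2 NrESC and 2 ESC libraries among the 32 of the series. NrESC were E14 cells, a wild-type mouse line, kept on gelatin in medium that held serum, LIF, 3 µM of the GSK3 inhibitor CHIR99021, 1 µM of the MEK inhibitor PD0325901 and 10 µM T0901317. ESC were the same line in the same medium without T0901317, so both arms carried both kinase inhibitors. The other 28 libraries came from passages 0, 2, 4, 6, 8, 12 and 14 of the same arms, again 2 for each arm and passage. A single line was used. Since the labels leave out whether paired libraries stem from separate cultures, p-values measure only the spread between those libraries, which may be technical.

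LXR are nuclear receptors that bind oxysterols, pair with retinoid X receptors (RXR) on DNA and switch on genes for cholesterol export and for fatty acid synthesis. One of their targets encodes SREBP-1c, a factor that drives fatty acid synthesis, while SREBP-2 drives cholesterol synthesis and uptake when sterols run low. Embryonic stem cells rely on glycolysis for much of their energy, and glycolytic enzymes and glucose transporters are targets of the hypoxia-inducible factors (HIF), which act when oxygen-dependent hydroxylases are slow. ATF4 is the transcription factor of the integrated stress response and drives genes of amino acid uptake and synthesis. Cultures of these cells also hold a small share of 2-cell-like cells, which switch on genes of the 2-cell embryo such as the Zscan4 cluster.

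The passage 10 libraries held 36963838 and 30939194 counts in NrESC and 41314521 and 35225992 in ESC, within the 24989652 to 50463489 of the whole series. Replicate libraries lay close together: the median SD between the 2 libraries of a group was 0.0517 on the log2 scale, against 0.188 between the NrESC passage means and 0.160 between the ESC passage means. Transcripts of 10 embryonic stem cell markers summed to 7211 and 7200.4 CPM (counts scaled by TMM to a common library size) in NrESC and 6989.6 and 7005 in ESC. Among 12 fibroblast markers 6 were too low to test, and the defining genes Lum and Dcn had no count in any of the 4 libraries. The 12 summed to 199.6 and 203 CPM in NrESC and 279 and 277 CPM in ESC, most of it Vim, an intermediate filament gene that stem cells also express, with 160.2 and 163 CPM in NrESC and 249.6 and 249 CPM in ESC. Of the 6 tested, 2 were higher, 2 lower and 2 not called, with a median of -0.12, where 27.0% of all genes tested were higher and 28.5% lower. The 2 that were higher were Pdgfrb and Col1a1, by 0.94 (SE 0.072) and 0.54 (SE 0.17). Without NrESC replicate 1 or without ESC replicate 1 Col1a1 was no longer called (adjusted p of 0.0562 and 0.246). Ribosomal protein transcripts took 7.23% to 7.35% of the counts in NrESC and 6.85% to 6.89% in ESC, and their part in the results was not tested. On the first principal component the ESC libraries of passage 10 had the lowest scores of all 32, -45.4 and -45.6. Those of ESC passage 6 came next, at -42.4 and -42.6. Among the 16 ESC libraries, one of passage 10 had the lowest summed level of sterol LXR targets (706 CPM) and of ATF4 and CHOP genes (3418 CPM). One also had the highest of DNA methylation genes (5881 CPM). The part of this in the arm differences was not tested. Both passage 8 libraries of NrESC lay far from the other 30 on the same component. Without them 4039 genes were higher and 4288 lower at passage 10, beside the counts given next.

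Most of the genes tested differed between the arms at passage 10. Of 15036 genes tested, 4056 were higher (27.0%) and 4289 were lower (28.5%) in NrESC at an adjusted p below 0.05 in edgeR's quasi-likelihood test, in which all 16 groups of libraries shared the estimate of the spread. That test, with Benjamini-Hochberg adjustment over all genes tested, gave every adjusted p printed here. Most changes were small, with a median size of 0.338 on the log2 scale among the genes called. A difference of 2-fold or more was found for 614 genes that were higher (4.08%) and 549 that were lower (3.65%). Over all genes the median log2 fold change, NrESC over ESC, was -0.0047. A gene is said to rise or fall where NrESC was above or below ESC at passage 10. The shares of 27.0% higher and 28.5% lower are the measure for the counts of list members given below. Against a change of 1.2-fold in place of none, 1838 genes were higher and 1476 lower. The model knows only the spread between replicate libraries, so each difference was also set beside the 16 ESC libraries of all passages. Both NrESC libraries of passage 10 lay above every ESC library for 1035 of the genes called higher (6.88% of those tested), and below every one for 1115 of the genes called lower (7.42%).

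**Figure D1:**
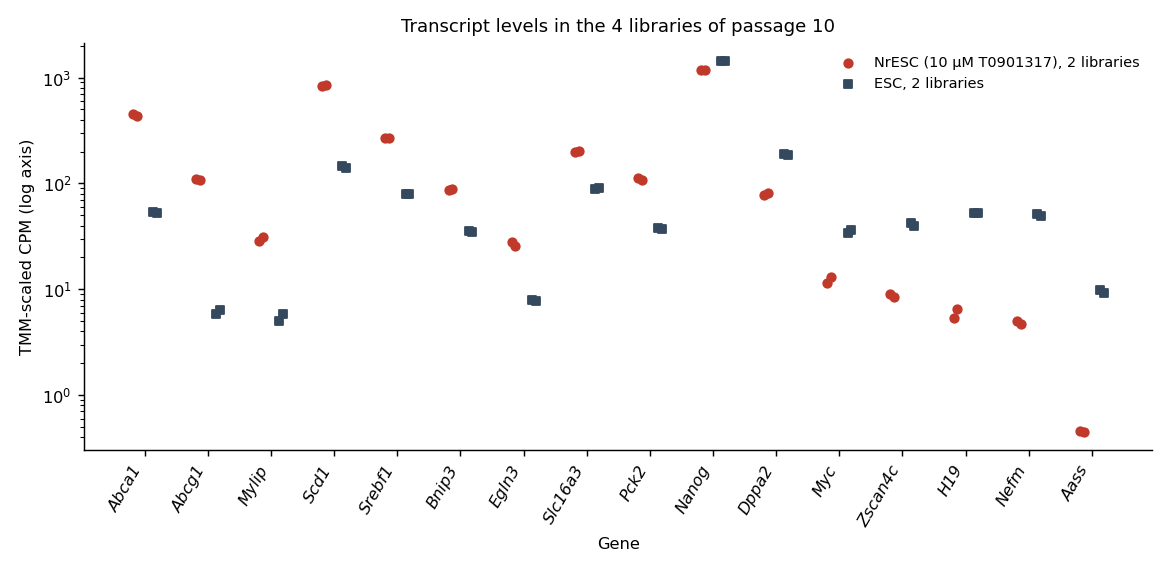
TMM-scaled CPM (log axis) of 16 genes in the 4 libraries of passage 10, with red circles for the 2 NrESC libraries and dark squares for the 2 ESC libraries. Replicates nearly coincide, Abcg1 stands at 109.9 and 107 CPM in NrESC and 5.80 and 6.42 CPM in ESC, and Aass at 0.457 and 0.45 CPM in NrESC and 9.92 and 9.17 CPM in ESC.

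The direct targets of LXR in sterol traffic rose, led by the exporters. Abcg1, which passes cholesterol to lipoproteins, had 109.9 and 107 CPM in the NrESC libraries, against 5.80 and 6.42 CPM in the ESC libraries. Its log2 fold change, 4.15 (SE 0.061, adjusted p = 5.2e-40), was the highest of the genes named here. Abca1, which loads cholesterol onto apolipoprotein A-I, had 449.6 and 438 CPM in the NrESC libraries, against 54.2 and 53 CPM in the ESC libraries, that is, 3.05 on the log2 scale (SE 0.032, adjusted p = 1.74e-45). Mylip, a ubiquitin ligase that marks lipoprotein receptors for degradation, had 28.3 and 31.2 CPM in the NrESC libraries, against 5.03 and 5.87 CPM in the ESC libraries (log2 fold change 2.45, SE 0.082, adjusted p = 8.91e-27). For each of these genes both NrESC libraries lay above all 16 ESC libraries of any passage. Uptake receptors rose as well. Vldlr had 13.3 and 13.4 CPM in NrESC and 4.02 and 3.07 CPM in ESC (log2 fold change 1.90, SE 0.11, adjusted p = 4.32e-19) and Lrp8 rose by 0.80 (SE 0.097). The lipoprotein component Apoe had 406 and 403 CPM in NrESC and 243 and 243 CPM in ESC, a log2 fold change of 0.73 (SE 0.03). In all, 11 of 14 sterol targets tested rose and none fell, with a median of 0.64. The lipase Lpl and the lysosomal sterol carrier Npc1 were not called, with 0.046 (SE 0.08) and -0.094 (SE 0.066), and Abcg5, Abcg8 and Cyp7a1, which act in liver and gut, were too low to test.

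The promoters of Abca1, Srebf1 and Fasn hold the DR4 pattern that LXR and RXR read, and are printed to show its letters beside the change of the gene. The pattern searched was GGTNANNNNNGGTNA on both strands of the RefSeq promoters of the GRCm38.p6 build, from 250 bases before to 50 after each start. It was present in 3 of 19 called targets with a promoter entry and in 0.818% of 27025 genes with one, a gene being counted where any of its listed starts held it. The Srebf1 match lies before a start inside the gene, the one of 3 listed that is farthest downstream. Capitals mark the match, which lies on the strand opposite to the gene, so the letters shown are its reverse complement, and each sequence runs 5′ to 3′ on the minus strand. The windows are chr4:53159926-53159984, chr11:60210617-60210675 and chr11:120824736-120824794, and their matches end 52, 167 and 210 bases before the start sites.
Abca1: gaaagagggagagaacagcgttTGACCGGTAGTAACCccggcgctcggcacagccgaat
Srebf1: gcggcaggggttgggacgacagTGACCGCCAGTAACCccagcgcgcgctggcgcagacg
Fasn: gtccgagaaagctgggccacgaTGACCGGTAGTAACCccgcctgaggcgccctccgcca
The matched letters of Abca1 and Fasn were the same, while the genes differed in response, with log2 fold changes of 3.05 for Abca1, 1.75 for Srebf1 and 0.49 for Fasn. A match is a description of these letters and does not show binding.

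The receptors themselves changed little. Nr1h2, which encodes LXR beta, stood at 55.4 and 56.6 TPM in NrESC and 55.9 and 56.4 TPM in ESC, and its fold change was -0.0062 on the log2 scale (SE 0.048, adjusted p = 0.923). Nr1h3, which encodes LXR alpha, stood at only 0.85 and 1.26 TPM in NrESC and 0.97 and 0.94 TPM in ESC, so LXR beta was the more abundant transcript per length in both arms. Among 18 receptors and coregulators tested, 1 rose and 7 fell, with a median of -0.078. The corepressor Ncor1 fell by 0.25 (SE 0.022), the coactivator Ncoa3 by 0.35 (SE 0.024) and the acetyltransferase Crebbp by 0.45 (SE 0.041) on the log2 scale. The partner Rxra had 36.6 and 39.3 CPM in NrESC and 44.9 and 47.7 CPM in ESC and fell by 0.29 (SE 0.049).

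Lipogenic targets rose with a median of 0.75, with 12 of 16 higher and 2 lower. Scd1, a desaturase that makes oleate from stearate, had 833 and 848 CPM in the NrESC libraries, against 146 and 139.8 CPM in the ESC libraries (log2 fold change 2.55, SE 0.026, adjusted p = 3.97e-46). Its paralogue Scd2 had 3230.4 and 3297 CPM in the NrESC libraries, against 833 and 818 CPM in the ESC libraries (log2 fold change 1.98, SE 0.02, adjusted p = 3.97e-46). Mid1ip1, which helps acetyl-CoA carboxylase to polymerise, had 49.4 and 51.3 CPM in the NrESC libraries, against 7.35 and 8.79 CPM in the ESC libraries (log2 fold change 2.65, SE 0.06, adjusted p = 1.63e-32). Srebf1, the gene of SREBP-1, had 266 and 269 CPM in the NrESC libraries, against 79.6 and 79.6 CPM in the ESC libraries (log2 fold change 1.75, SE 0.037, adjusted p = 1.65e-33). None of the 4 overlapped with any of the 16 ESC libraries. Lpcat3, which places polyunsaturated chains into membrane phospholipids and is a textbook LXR target, had 168 and 175 CPM in NrESC and 73.4 and 75.9 CPM in ESC (1.2, SE 0.032). The enzymes that build the chain had smaller fold changes, as acetyl-CoA carboxylase Acaca rose by 0.92 (SE 0.027) and fatty acid synthase Fasn by 0.49 (SE 0.023). The 2 members that fell were Mlxipl, which encodes the glucose-responsive factor ChREBP, with 8.66 and 9.10 CPM in NrESC and 12.6 and 12.1 CPM in ESC (-0.48, SE 0.085), and the elongase Elovl6, with -0.12 (SE 0.027). Of 20 fatty acid synthesis genes, a list that shares Scd1, Scd2, Mid1ip1, Fasn and Acaca with the lipogenic targets, 17 rose and 1 fell, with a median of 0.47.

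Cholesterol synthesis rose evenly and by less than 2-fold. Of 23 genes tested, 21 rose and none fell, with a median of 0.47 and values of up to 0.91. Dhcr7, the last enzyme of one branch to cholesterol, had 124 and 124 CPM in the NrESC libraries, against 66.4 and 66.2 CPM in the ESC libraries (log2 fold change 0.91, SE 0.032, adjusted p = 6.02e-26). Fdps, which makes farnesyl diphosphate, rose by 0.63 (SE 0.032), and Lss, which closes the sterol rings, rose by 0.60 (SE 0.032). Hsd17b7, a ketosteroid reductase of the pathway, was not called, with -0.035 (SE 0.082). Only 1 of the 21 lay above all 16 ESC libraries. The summed level of the list was 2619 and 2614 CPM in NrESC at passage 10, inside the 1789 to 3012 CPM of the ESC libraries of all passages. A sterol element pattern, TCACNCCAC, was searched on both strands of the same promoters. None of 16 called cholesterol synthesis genes with a promoter entry held it, and 1.44% of all 27025 genes did.

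The regulators of SREBP moved in both directions. Insig1, which holds SREBP in the endoplasmic reticulum and is itself a target of SREBP, had 108 and 111 CPM in NrESC and 69.1 and 71.1 CPM in ESC (0.64, SE 0.035), and Srebf2 rose by 0.43 (SE 0.029). Rnf145, a ubiquitin ligase of the endoplasmic reticulum that limits SREBP-2 transport and is an LXR target, had 129.9 and 138 CPM in NrESC and 86.6 and 85.8 CPM in ESC (0.63, SE 0.032). Scap, the escort of SREBP, fell by 0.33 (SE 0.039). Across the list 8 of 12 rose and 2 fell, with a median of 0.40. Phospholipid genes had 15 of 25 higher and 3 lower, with a median of 0.22. Beside Lpcat3 the largest change was that of Agpat4, which makes phosphatidic acid, with 10.6 and 10.4 CPM in NrESC and 4.71 and 4.48 CPM in ESC (1.19, SE 0.11), and the phosphatidate phosphatase Lpin1 rose by 0.60 (SE 0.049). Fatty acid oxidation had no common direction, with 6 of 22 higher, 11 lower and a median of -0.018. Over all genes 27.0% were higher and 28.5% lower. The fatty acid binding protein gene Fabp3 fell by 0.59 (SE 0.05) and the carnitine carrier Slc25a20 by 0.61 (SE 0.036), while the muscle-type carnitine transferase Cpt1b had 8.15 and 7.52 CPM in NrESC and 2.27 and 2.43 CPM in ESC and rose by 1.74 (SE 0.13).

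**Figure D2:**
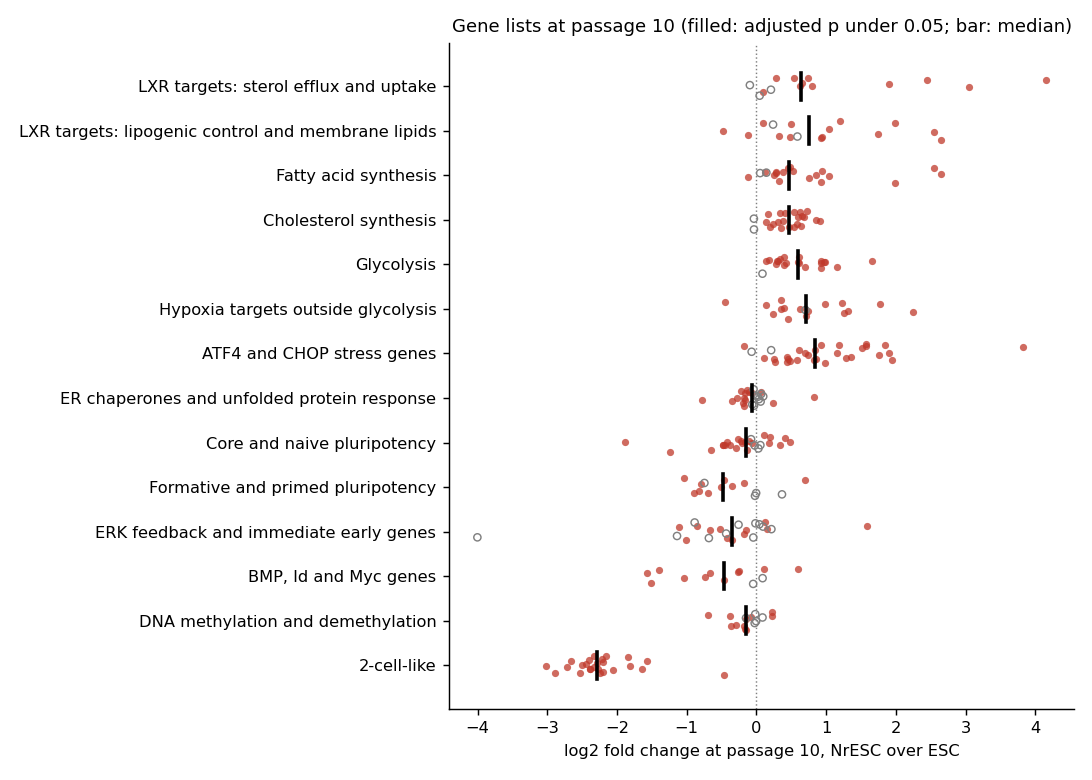
Log2 fold change, NrESC over ESC, at passage 10 for each tested member of 14 gene lists (filled points: adjusted p under 0.05, open points: not called, bars: list medians). Medians run from -2.29 for 2-cell-like genes to 0.84 for ATF4 and CHOP genes, with hypoxia targets at 0.70 and glycolysis at 0.60.

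Glycolysis genes and targets of HIF were higher in NrESC at passage 10. At each of the other passages most of the hypoxia targets were lower or not called, while most glycolysis genes were also higher at passage 6, by less. Of 17 hypoxia targets outside glycolysis, 15 were higher and 1 lower in NrESC, with a median of 0.70. Of 21 glycolysis genes, 20 were higher and none lower, with a median of 0.60. The glucose transporter Slc2a1, which stands in both lists, had 594 and 599 CPM in the NrESC libraries, against 299.6 and 304 CPM in the ESC libraries (log2 fold change 0.98, SE 0.024, adjusted p = 8.84e-32). Slc2a3, a transporter of high glucose affinity, had 3834 and 3837 CPM in the NrESC libraries, against 2380.2 and 2343 CPM in the ESC libraries (log2 fold change 0.70, SE 0.018, adjusted p = 5.27e-31). Pfkp, a phosphofructokinase, had 519 and 515 CPM in the NrESC libraries, against 271 and 273 CPM in the ESC libraries (log2 fold change 0.93, SE 0.024, adjusted p = 1.44e-30). In each case the replicates differed by far less than the arms. The lactate exporter Slc16a3 had 199.9 and 205 CPM in NrESC and 89.3 and 91.5 CPM in ESC (1.16, SE 0.033), the aldolase Aldoc rose by 1.65 (SE 0.064) and the hexokinase Hk1 by 0.92 (SE 0.026). Eno3, the muscle enolase, was not called (0.087, SE 0.07).

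Outside glycolysis, Bnip3, a receptor for the removal of mitochondria, had 87.6 and 88.8 CPM in the NrESC libraries, against 35.9 and 34.9 CPM in the ESC libraries (log2 fold change 1.32, SE 0.041, adjusted p = 6.49e-28). The growth factor Vegfa had 92.9 and 95.5 CPM in the NrESC libraries, against 39.4 and 39.8 CPM in the ESC libraries (log2 fold change 1.25, SE 0.042, adjusted p = 1.14e-26). Egln3, a prolyl hydroxylase that marks HIF for degradation and is itself induced by HIF, had 28.0 and 25.4 CPM in the NrESC libraries, against 7.97 and 7.66 CPM in the ESC libraries (log2 fold change 1.77, SE 0.086, adjusted p = 3.99e-21). Ndrg1, another stress-induced target, had 43.6 and 40.0 CPM in NrESC and 18.3 and 17.3 CPM in ESC (1.23, SE 0.06), and the collagen hydroxylases P4ha1 and P4ha2 rose by 0.63 (SE 0.041) and 0.71 (SE 0.079). The exception was the histone demethylase Kdm3a, which had 325 and 323 CPM in NrESC and 441 and 444 CPM in ESC and fell by 0.45 (SE 0.024). Car9, a carbonic anhydrase, was not called at 0.753 and 1.51 CPM in NrESC and 0.765 and 0.578 CPM in ESC. Ndufa4l2 and Loxl2 stand outside both lists, and both are known in other tissues as HIF targets. Ndufa4l2, a mitochondrial protein, had 25.9 and 28.5 CPM in the NrESC libraries, against 7.89 and 8.76 CPM in the ESC libraries (log2 fold change 1.71, SE 0.079, adjusted p = 8.84e-22). The lysyl oxidase Loxl2 had 21.0 and 21.3 CPM in the NrESC libraries, against 7.75 and 7.09 CPM in the ESC libraries (log2 fold change 1.51, SE 0.085, adjusted p = 7.3e-19).

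The windows around the hypoxia core ACGTG are printed for 4 of these genes, each with a single start listed, to show the letters that HIF reads beside the change of the gene. ACGTG was searched on both strands of the same promoters, a pattern chosen after the values had been seen. It was present in 10 of 13 called hypoxia targets with a promoter entry, 13 of 19 called glycolysis genes and 21.8% of all 27025, and it overlaps the E-box core that other factors read. Each sequence runs 5′ to 3′ on the strand of the gene and capitals mark the match. Slc2a1 lies on the plus strand at chr4:119108687-119108735, while Bnip3 at chr7:138909587-138909635, Egln3 at chr12:54204077-54204124 and Egln1, the prolyl hydroxylase that does most of the work on HIF, at chr8:124949296-124949344 lie on the minus strand.
Slc2a1: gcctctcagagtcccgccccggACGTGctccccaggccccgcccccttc
Bnip3: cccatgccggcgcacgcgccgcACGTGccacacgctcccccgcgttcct
Egln3: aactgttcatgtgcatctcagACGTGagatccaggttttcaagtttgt
Egln1: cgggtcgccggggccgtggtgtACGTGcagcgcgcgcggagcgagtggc
The matches end 31, 102, 224 and 63 bases before the start sites in that order, and the genes rose by 0.98, 1.32, 1.77 and 0.74 on the log2 scale.

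At the other passages the hypoxia targets were mostly lower in NrESC or not called, and glycolysis varied with passage. The median log2 fold change of the hypoxia targets was -0.51, -0.48, -0.59, -0.047, -0.50, -0.19 and -0.52 over passages 0, 2, 4, 6, 8, 12 and 14. At these 7 passages in turn 14, 13, 14, 7, 12, 10 and 14 of the 17 were called lower, where 14.8%, 23.8%, 26.9%, 25.1%, 34.6%, 24.0% and 21.3% of all genes tested were. Called higher were 1, 1, 3, 3, 2, 2 and 1 of them, where 17.6%, 24.7%, 27.4%, 23.6%, 35.2%, 23.1% and 19.7% of all genes were. Glycolysis had medians of -0.20, -0.17, -0.14, 0.19, -0.17, 0.015 and -0.062 over the same passages. Of its 21 genes, 16, 13, 14, 1, 13, 6 and 11 were called lower and 3, 5, 4, 17, 6, 8 and 4 higher, so passage 6 had the direction of passage 10 with a smaller median. Hk1, Ldhb, which encodes a lactate dehydrogenase subunit, and Vegfa were higher in NrESC at all 8 passages. Over all genes, 105 were called higher at passage 10 and lower at 4 or more of the 7 other passages (0.698% of those tested), and 23 of the 105 stood among the 37 distinct genes tested in the 2 lists. The opposite change, lower at passage 10 and higher at 4 or more others, was found for 30 genes (0.200%), none of them in the 2 lists.

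**Figure D3:**
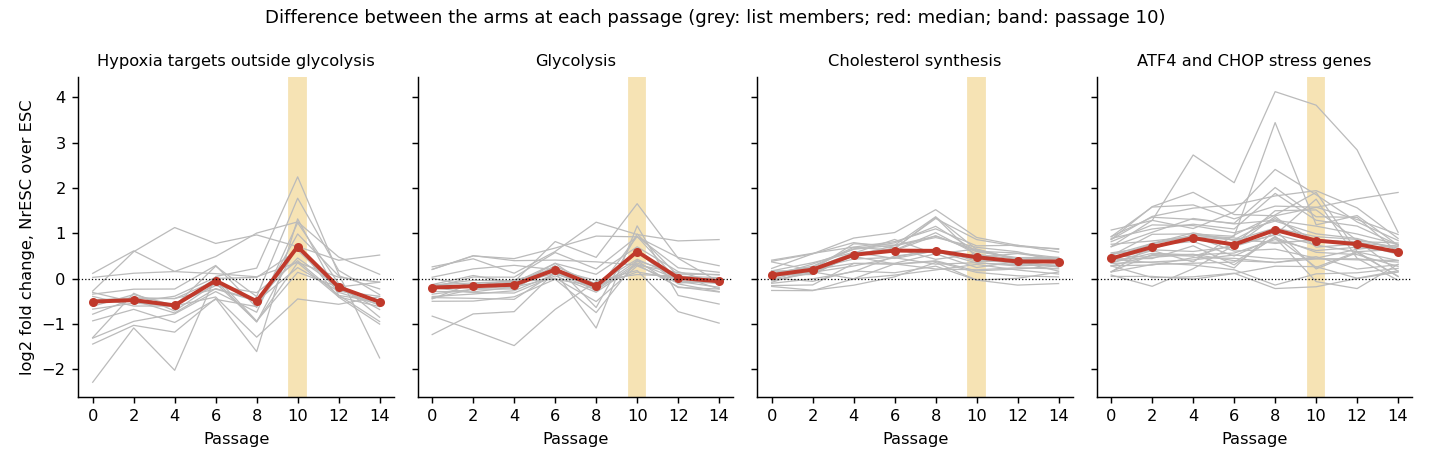
Log2 fold change, NrESC over ESC, at each passage for the members of 4 lists (grey lines) with their medians (red), passage 10 shaded. The hypoxia median stands at 0.70 at passage 10 and between -0.59 and -0.047 at the other passages, while the cholesterol and ATF4 medians are above 0 at every passage.

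The level of Bnip3 moved in both arms. In NrESC the mean level of Bnip3 was 21.1, 35.0, 33.0, 21.5, 15.0, 88.2, 63.2 and 59.6 CPM at passages 0, 2, 4, 6, 8, 10, 12 and 14. In ESC it was 57.5, 71.9, 75.4, 29.2, 45.9, 35.4, 81.7 and 115 CPM at the same passages. The highest NrESC level was that of passage 10, where ESC was at its second lowest, after passage 6. Relative to the mean of passages 6 and 12, Bnip3 at passage 10 was higher by 1.26 in NrESC (adjusted p = 1.89e-28) and lower in ESC, with -0.47 (adjusted p = 1.72e-12). The test of the difference itself, the passage 10 fold change minus the mean of those at passages 6 and 12, gave 1.72 (SE 0.052, adjusted p = 6.82e-27). The same contrast within an arm had a median of 0.41 in NrESC and -0.26 in ESC for the hypoxia targets, and of 0.31 in NrESC and -0.15 in ESC for glycolysis. In ESC the 2 reference passages were unlike. Over passages 6, 10 and 12 Bnip3 averaged 29.2, 35.4 and 81.7 CPM there, Slc2a1 265, 302 and 453 CPM, and Vegfa 47.6, 39.6 and 69.8 CPM. Passage 10 thus lay above passage 6 for Bnip3 and Slc2a1, and below both for Vegfa. In that test of the difference, 15 of 17 hypoxia targets and 19 of 21 glycolysis genes were higher at passage 10 than at passages 6 and 12 and none lower, where 718 of all 15036 genes were higher (4.78%) and 838 lower (5.57%). Their medians were 0.74 and 0.46.

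Most of the hypoxia targets stayed within what ESC reached at other passages. Bnip3 in the 2 NrESC libraries of passage 10 lay within the 28.6 to 117 CPM spanned by the 16 ESC libraries, and so did Egln3, with 6.32 to 28.4 CPM in ESC of any passage. Slc2a1 was the only one of the 15 hypoxia targets called higher that lay above every ESC library, which together spanned 261 to 558 CPM. Among the glycolysis genes 13 of 20 lay above all ESC libraries, Pfkp, Hk1 and Aldoc among them. Of all 4056 genes called higher, 1035 did.

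**Figure D4:**
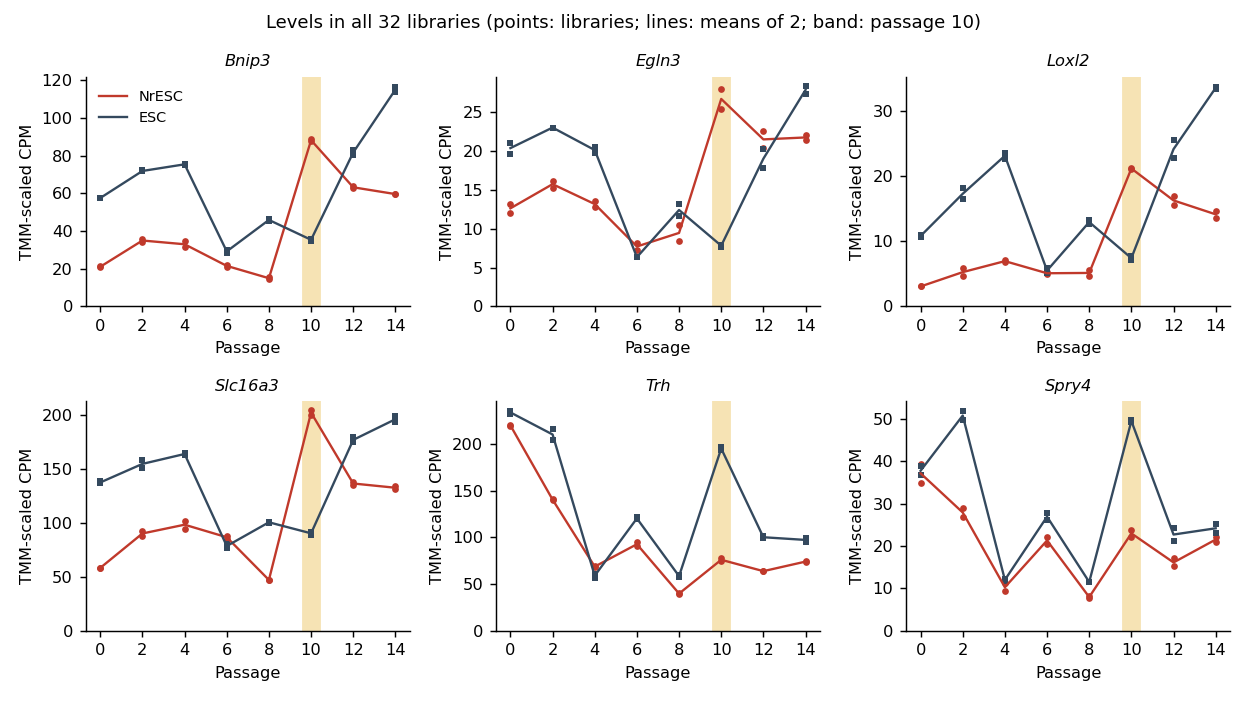
TMM-scaled CPM in all 32 libraries over passages 0 to 14 for 6 genes (points: libraries, lines: means of 2, red: NrESC, dark: ESC, passage 10 shaded). Bnip3, Egln3, Loxl2 and Slc16a3 are higher in NrESC at passage 10 and lower at passages 0, 2, 4, 8 and 14, while the ESC level of Trh and Spry4 is higher at passage 10 than at passages 4, 6, 8, 12 and 14.

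Genes of the integrated stress response were higher in NrESC, as they were at the other passages. Of 31 ATF4 and CHOP genes tested, 28 rose and 1 fell, with a median of 0.84. Of the 28, 17 lay above all 16 ESC libraries, as did 1035 of all 4056 genes called higher. Pck2, a mitochondrial enzyme that feeds carbon into serine synthesis, had 113 and 109 CPM in the NrESC libraries, against 37.5 and 36.9 CPM in the ESC libraries (log2 fold change 1.58, SE 0.037, adjusted p = 7.07e-32). The serine pathway enzyme Psat1 had 557 and 552 CPM in the NrESC libraries, against 308 and 302 CPM in the ESC libraries (log2 fold change 0.86, SE 0.023, adjusted p = 5.53e-30), and its partners Phgdh and Psph rose by 1.16 (SE 0.035) and 0.92 (SE 0.048). Slc7a5, the light chain of a large neutral amino acid transporter, had 609.6 and 606 CPM in the NrESC libraries, against 341 and 346 CPM in the ESC libraries (log2 fold change 0.82, SE 0.022, adjusted p = 2.95e-30). Genes of the pathway's own control rose too. Atf4 had 424 and 426 CPM in NrESC and 275 and 279 CPM in ESC (0.62, SE 0.026), Ddit3, which encodes CHOP, rose by 1.19 (SE 0.092) and the pseudokinase Trib3 by 1.29 (SE 0.055). Chac1, which degrades glutathione, had 18.9 and 21.1 CPM in NrESC and 5.99 and 4.28 CPM in ESC (1.94, SE 0.1), and the stress protein Nupr1 had 47.1 and 47.0 CPM in NrESC and 13.5 and 12.5 CPM in ESC (1.85, SE 0.062). The arginine transporter Slc7a3 fell by 0.18 (SE 0.039), and Aldh1l2 and Cebpb were not called. At the other passages the median of the list ran from 0.44 at passage 0 to 1.07 at passage 8. Within the arms, passage 10 was called below the mean of passages 6 and 12 for 19 of the 31 in NrESC and 21 in ESC. It was called above that mean for 3 and 2. Over all genes tested 4.39% and 11.3% were below and 4.51% and 13.7% above. The summed level of the list was 5358 and 5342 CPM in NrESC, whose libraries of all passages spanned 5342 to 6995 CPM.

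Within the 31 stress genes tested, 7 had a larger difference at passage 10 than at passages 6 and 12 and 2 a smaller one. Of all genes tested, 4.78% and 5.57% did. Ddit4, an inhibitor of mTORC1 that HIF and p53 also induce, had 124 and 120.1 CPM in NrESC and 42.7 and 42.7 CPM in ESC (1.52, SE 0.05) and a difference from passages 6 and 12 of 0.72 (SE 0.062, adjusted p = 8.99e-12). Vldlr, which is also counted among the sterol targets of LXR, and Stc2 had differences of 1.13 (SE 0.13, adjusted p = 2.69e-08) and 1.16 (SE 0.17, adjusted p = 5.6e-06). Chaperones of the endoplasmic reticulum did not rise as a group: of 24 genes of the unfolded protein response 3 rose and 12 fell, with a median of -0.06. Hspa5, its main chaperone, had 713 and 699.9 CPM in NrESC and 778 and 768 CPM in ESC (-0.13, SE 0.021), Pdia3 fell by 0.22 (SE 0.024) and Dnajb11 by 0.27 (SE 0.033). Herpud1, which serves protein degradation and is also an ATF4 target, rose, with 33.1 and 32.8 CPM in NrESC and 18.7 and 18.5 CPM in ESC (0.82, SE 0.066). Cytosolic aminoacyl-tRNA synthetases, several of which ATF4 drives, had 13 of 20 higher and 2 lower, with a median of 0.15. Sars rose by 0.68 (SE 0.025), Nars by 0.57 (SE 0.023) and Gars by 0.42 (SE 0.021), while those for lysine, glutamine and histidine were not called.

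The ATF4 element, searched as TGATGNAA on both strands, was present in 9 of 26 called stress genes with a promoter entry and in 4.51% of all 27025. Windows of 4 genes are printed to show it in genes with small and large changes. Pck2 at chr14:55540141-55540192 and Chac1 at chr2:119351027-119351078 lie on the plus strand, and Nupr1 at chr7:126625551-126625602 and Asns at chr6:7693210-7693254 on the minus strand. In Asns, the asparagine synthetase, the element reads in the direction of the gene, and in the others it is on the opposite strand and its reverse complement is shown in capitals.
Pck2: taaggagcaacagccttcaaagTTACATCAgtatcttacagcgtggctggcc
Nupr1: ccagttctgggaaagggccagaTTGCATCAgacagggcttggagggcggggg
Asns: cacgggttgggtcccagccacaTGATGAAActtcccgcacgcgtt
Chac1: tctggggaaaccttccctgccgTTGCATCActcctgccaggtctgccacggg
Nupr1 and Chac1 carry the same 8 letters and rose by 1.85 and 1.94, Pck2 rose by 1.58 and Asns by 0.43 on the log2 scale.

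The 2-cell-like transcripts were lower in NrESC in every gene tested. All 25 genes fell, 24 of them by 2-fold or more, with a median of -2.29. Zscan4c, of the cluster that marks these cells, had 8.99 and 8.46 CPM in the NrESC libraries, against 41.9 and 39.6 CPM in the ESC libraries (log2 fold change -2.22, SE 0.075, adjusted p = 1.74e-26). Zscan4a fell by 2.24 (SE 0.088). Zscan4d had 4.65 and 5.27 CPM in the NrESC libraries, against 27.9 and 26.0 CPM in the ESC libraries (log2 fold change -2.45, SE 0.11, adjusted p = 6.81e-23), and Zscan4f fell by 2.53 (SE 0.12). The deubiquitinase family member Usp17lb fell by 2.89 (SE 0.21). Zscan4 and Usp17l genes are near-identical copies, so the split of reads among them by RSEM is uncertain, and the same holds for Tdpoz and Pramel genes. Summed over the list, including genes too low to test, NrESC had 94.1 and 86.6 CPM and ESC 313 and 310.5 CPM. In bulk RNA fewer such cells and less RNA per cell cannot be told apart. No member lay below all 16 ESC libraries. At passage 0 Zscan4c averaged 3.12 CPM in NrESC and 5.82 CPM in ESC, both below its passage 10 mean of 8.72 CPM in NrESC. At passage 10 its ESC mean was 40.7 CPM, so both arms stood higher than at passage 0.

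Regulators of that state mostly fell by small amounts, activators and repressors alike: 16 of 25 were lower and 4 higher, with a median of -0.17. Dppa2, an activator of Dux and of the 2-cell genes, had 77.9 and 81.9 CPM in the NrESC libraries, against 188 and 187 CPM in the ESC libraries (log2 fold change -1.23, SE 0.038, adjusted p = 7.02e-28), below all 16 ESC libraries. Its partner Dppa4 fell by 0.29 (SE 0.034). The repressors Trim28 and Setdb1, which silence endogenous retroviruses, fell by 0.36 (SE 0.022) and 0.38 (SE 0.026), and Rif1 by 0.42 (SE 0.024). Kdm1a, another repressor, rose by 0.11 (SE 0.023). Pramel6 and Pramel7, which lower DNA methylation in naive cells, were among the lowest of all genes, with 3.39 and 2.64 CPM in NrESC and 29.3 and 28.4 CPM in ESC for Pramel6 (-3.24, SE 0.1) and 2.07 and 1.45 CPM in NrESC and 14.2 and 14.3 CPM in ESC for Pramel7 (-3.00, SE 0.13). The third family member tested, Pramel1, rose by 0.54 (SE 0.18, adjusted p = 0.0109), a call that was lost without NrESC replicate 2 or without ESC replicate 1 (adjusted p of 0.0654 and 0.205).

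Core pluripotency factors were nearly level between the arms. Pou5f1 (Oct4) had 1409 and 1433 CPM in the NrESC libraries, against 1380.3 and 1351 CPM in the ESC libraries, that is, 0.057 on the log2 scale (SE 0.025, adjusted p = 0.0506). Nanog had 1181 and 1191 CPM in the NrESC libraries, against 1426 and 1429.8 CPM in the ESC libraries (log2 fold change -0.27, SE 0.021, adjusted p = 1.13e-14), and Sox2 had 376 and 367 CPM in NrESC and 398 and 399 CPM in ESC (-0.10, SE 0.026). Esrrb and Tet1 were not called. Of 26 core and naive genes 6 rose and 16 fell, with a median of -0.15. Klf4 rose by 0.48 (SE 0.03), and Sall4 fell by 0.48 (SE 0.026). The lowest member was Dppa3 (Stella), a maternal factor that protects methylation, with 0.726 and 0.579 CPM in NrESC and 2.24 and 2.66 CPM in ESC (-1.89, SE 0.23). Formative and primed genes had 9 of 14 lower and 1 higher, with a median of -0.48. Foxd3 had 13.4 and 14.7 CPM in NrESC and 29.0 and 28.7 CPM in ESC (-1.04, SE 0.087), Zic2 fell by 0.83 (SE 0.058) and the de novo methyltransferase Dnmt3b by 0.69 (SE 0.032). The one that rose was Otx2, a driver of the exit from naive pluripotency, with 9.18 and 8.94 CPM in NrESC and 5.03 and 6.16 CPM in ESC (0.70, SE 0.1).

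Targets of beta-catenin and of BMP were mostly lower, while the Nodal pathway split. In the Nodal pathway the ligand and its coreceptor were near the ESC level, with Nodal at -0.034 (SE 0.036) and Tdgf1 at 0.11 (SE 0.03). Lefty2, a feedback inhibitor, had 103 and 99.7 CPM in the NrESC libraries, against 240.2 and 237 CPM in the ESC libraries (log2 fold change -1.23, SE 0.033, adjusted p = 2.31e-30), Lefty1 fell by 1.2 (SE 0.11) and the ligand Gdf3 by 0.50 (SE 0.03). The 20 Nodal genes tested split into 8 higher and 9 lower, with a median of 0.013. Among 19 beta-catenin targets 13 fell and 4 rose, with a median of -0.49. Myc had 11.6 and 13.1 CPM in the NrESC libraries, against 33.9 and 36.4 CPM in the ESC libraries (log2 fold change -1.52, SE 0.07, adjusted p = 6.78e-22), Tnfrsf19 fell by 1.15 (SE 0.083) and the cyclin Ccnd1 by 0.59 (SE 0.034). The general feedback target Axin2 changed less, by -0.28 (SE 0.054). Id genes, which BMP induces, were lower, with 12.5 and 14.3 CPM in NrESC and 35.6 and 35.0 CPM in ESC for Id3 (-1.40, SE 0.073) and -0.66 (SE 0.08) for Id1. Of 13 BMP, Id and Myc genes, a list that shares Myc with the beta-catenin targets, 9 fell and 2 rose, with a median of -0.46.

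ERK feedback genes, which ERK signalling induces and MEK inhibition lowers, fell in part. Of 23 tested, 9 fell, 3 rose and 11 were not called, with a median of -0.35. Values ran from -4.00 to 1.58, and 2 of the genes called fell by 2-fold or more. Spry4, an inhibitor of the pathway, had 23.8 and 22.1 CPM in the NrESC libraries, against 49.6 and 49.3 CPM in the ESC libraries (log2 fold change -1.10, SE 0.065, adjusted p = 2.26e-18), Spry2 had 64.7 and 66.1 CPM in NrESC and 89.6 and 86.2 CPM in ESC (-0.43, SE 0.036) and the ERK phosphatase Dusp6 had 12.8 and 13.7 CPM in NrESC and 19.4 and 18.7 CPM in ESC (-0.53, SE 0.084). Ier3, an early response gene that stress also induces, went the other way, with 11.8 and 12.4 CPM in NrESC and 4.39 and 3.62 CPM in ESC (1.58, SE 0.12). The immediate early genes Fos, Egr1 and Jun were not called. The difference of passage 10 lay below that of passages 6 and 12 for 6 of the genes and above it for 2. It did so for 5.57% and 4.78% of all genes tested. For Spry4 the difference was -0.69 (SE 0.083, adjusted p = 6.78e-08), for Dusp6 -0.72 (SE 0.11, adjusted p = 3.63e-06) and for Ier3 1.36 (SE 0.15, adjusted p = 3.69e-09). Spry4 was higher at passage 10 than at passages 6 and 12 in both arms, by 0.31 in NrESC (adjusted p = 0.000744) and by 1.00 in ESC (adjusted p = 7.83e-18).

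Most lineage markers that were called fell. Of 20 trophectoderm genes 5 rose and 8 fell, with a median of -0.25, where 27.0% of all genes rose and 28.5% fell. The regulator Gata2 had 5.22 and 5.98 CPM in NrESC and 15.5 and 15.6 CPM in ESC (-1.48, SE 0.1), Eomes fell by 0.43 (SE 0.051) and Cdx2 had only 0.404 and 0.611 CPM in NrESC and 2.54 and 2.37 CPM in ESC (-2.29, SE 0.26). Peg10, an imprinted gene of the placenta, fell by 0.39 (SE 0.026). The keratin Krt19 rose, with 10.5 and 10.7 CPM in NrESC and 2.81 and 2.78 CPM in ESC (1.92, SE 0.11), and its difference from passages 6 and 12 was 1.63 (SE 0.14, adjusted p = 1.14e-11). Primitive endoderm genes had 2 of 17 higher and 8 lower (median -0.10). The endocytic adaptor Dab2 had 4.12 and 3.34 CPM in NrESC and 9.79 and 9.57 CPM in ESC (-1.37, SE 0.12), while Gata6, Sox17 and Pdgfra were not called. Mesoderm and definitive endoderm genes had 8 of 13 lower and none higher, 2 of them the Lefty genes. Their median was -0.64, with values from -4.32 to 0.20. Of 7 neuroectoderm genes 4 fell and 1 rose: Tubb3 fell by 0.62 (SE 0.039) and Nes by 0.66 (SE 0.046), and Sox1 rose by 0.67 (SE 0.1).

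Imprinted and methylation-linked genes fell more often than they rose, where 27.0% of all genes tested rose and 28.5% fell. H19, a non-coding RNA that is expressed from the maternal allele under the control of DNA methylation, had 5.35 and 6.53 CPM in the NrESC libraries, against 52.5 and 52.9 CPM in the ESC libraries (log2 fold change -3.16, SE 0.077, adjusted p = 1.61e-31). At passage 0 H19 averaged 2.91 CPM in NrESC and 4.53 CPM in ESC, both below its NrESC mean of 5.94 CPM at passage 10. Its neighbour Igf2 had 2.13 and 3.02 CPM in NrESC and 6.24 and 6.25 CPM in ESC (-1.29, SE 0.16), and Dlk1, of another imprinted cluster, had 0.807 and 0.804 CPM in NrESC and 3.31 and 3.59 CPM in ESC (-2.09, SE 0.22), so both partners at the H19 locus were lower. Plagl1, a zinc finger factor, fell by 0.52 (SE 0.028), and Impact, which restrains the kinase GCN2, by 0.67 (SE 0.032). Over 30 imprinted genes 4 rose and 13 fell, with a median of -0.14. Of 16 genes of DNA methylation 2 rose and 9 fell (median -0.15): Dnmt1 had 452 and 463 CPM in NrESC and 510.2 and 505 CPM in ESC (-0.15, SE 0.022), while Dnmt3a and Tet1 were not called. Germline genes that methylation silences had 4 of 23 higher and 9 lower (median -0.34). Hormad1 had 7.61 and 7.33 CPM in NrESC and 20.1 and 19.7 CPM in ESC (-1.41, SE 0.092), Fkbp6 had 14.9 and 15.4 CPM in NrESC and 38.7 and 37.9 CPM in ESC (-1.34, SE 0.063) and the cohesin subunit Stag3 rose by 0.68 (SE 0.048).

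The remaining lists held smaller or mixed changes, and 27.0% of all genes tested were higher and 28.5% lower. DNA replication genes had 25 of 36 lower and 2 higher, but by little, with a median of -0.11. The lowest was Fen1, the flap endonuclease, with -0.32 (SE 0.034), and Rpa1 and Mcm2 fell by 0.21 (SE 0.024) and 0.20 (SE 0.024). Respiratory chain genes had 9 of 38 higher and 11 lower, near the shares over all genes. Their median was -0.017 and all values lay between -0.23 and 0.27, which is less than the median of glycolysis in size. Among them the complex I subunit Ndufs1 fell by 0.23 (SE 0.031), and Cox6c of complex IV rose by 0.23 (SE 0.035). Of 22 p53 targets 4 rose and 13 fell (median -0.27), with Cdkn1a, the cell cycle inhibitor p21, higher by 0.49 (SE 0.027) and the kinase Plk2 lower, with -1.11 (SE 0.051). NRF2 targets had 11 of 20 higher and 3 lower (median 0.12), among them Srxn1 with 0.59 (SE 0.047), Nqo1 with 0.42 (SE 0.036) and the ferritin gene Ftl1 with 0.43 (SE 0.042). Lysosomal genes had 8 of 26 higher and 9 lower (median -0.02): the cathepsin gene Ctsb rose by 0.36 (SE 0.026), and Ctsa fell by 0.34 (SE 0.037). Genes of antigen presentation and interferon had 12 of 24 higher and 7 lower (median 0.44). Stat2, which carries the interferon signal, rose by 0.85 (SE 0.047). The class I gene H2-K1 had 41.9 and 41.9 CPM in NrESC and 16.8 and 16.4 CPM in ESC (1.34, SE 0.056) and the viral restriction factor Bst2 had 31.2 and 31.5 CPM in NrESC and 11.5 and 13.1 CPM in ESC (1.35, SE 0.063), while the class II gene H2-Eb1 had 0.753 and 0.547 CPM in NrESC and 6.78 and 5.87 CPM in ESC (-3.26, SE 0.22) and its activator Ciita fell by 1.94 (SE 0.33).

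Retinoic acid genes split evenly, with 6 of 17 higher and 6 lower (median -0.16), where 27.0% of all genes were higher and 28.5% lower. The receptor Rara had 71.7 and 72.5 CPM in NrESC and 41.7 and 41.9 CPM in ESC (0.79, SE 0.041) and the binding protein Crabp1 had 30.5 and 30.5 CPM in NrESC and 14.1 and 13.1 CPM in ESC (1.16, SE 0.07), whereas Rarg fell by 0.61 (SE 0.041). Collagens, laminins and lysyl oxidases had 7 of 21 higher and 7 lower (median -0.053). Col4a1 of the basement membrane fell by 0.56 (SE 0.05) and Lamb1 rose by 0.52 (SE 0.047). Loxl2 rose most, as given above.

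Most of the other genes at both ends of the scale stood in none of the pathway lists. Aass, the first enzyme of lysine breakdown, had 0.457 and 0.45 CPM in the NrESC libraries, against 9.92 and 9.17 CPM in the ESC libraries (log2 fold change -4.38, SE 0.2, adjusted p = 4.11e-22), the lowest fold change among the genes named. The neurofilament gene Nefm had 4.98 and 4.73 CPM in the NrESC libraries, against 51.3 and 49.6 CPM in the ESC libraries (log2 fold change -3.37, SE 0.081, adjusted p = 8.84e-32), and the zinc finger gene Zfp951 had 1.83 and 1.16 CPM in NrESC and 17.8 and 17.8 CPM in ESC (-3.54, SE 0.13). All 3 lay below every ESC library. The metabolic genes Aspa, an aspartoacylase, Slc5a1, a sodium-coupled glucose transporter, and Ido2, a tryptophan dioxygenase, were lower than in ESC by 2.76, 2.56 and 2.83 (SE 0.2, 0.12 and 0.2), and Smtnl1 and Fam198b by 2.92 and 2.53 (SE 0.12 and 0.092). At passages 0 and 10 Slc5a1 averaged 2.01 and 2.45 CPM in NrESC, and 3.01 and 14.4 CPM in ESC. Aspa averaged 3.96 and 0.977 CPM in NrESC, and 5.61 and 6.55 CPM in ESC. The NrESC libraries of passage 10 had 2.21 and 2.70 CPM of Slc5a1, and an ESC library of passage 2 had 2.51 CPM. On the high side Slfn9, of the Schlafen family, had 28.8 and 27.0 CPM in NrESC and 5.85 and 5.90 CPM in ESC (2.25, SE 0.082) and lay above all ESC libraries. Cacna1h, a T-type calcium channel, had 4.33 and 4.31 CPM in NrESC and 0.444 and 0.694 CPM in ESC (2.94, SE 0.21). The ESC libraries of passage 14 had more of it, at 4.68 and 4.80 CPM. The peptide hormone gene Adm2, a target of ATF4, had 6.97 and 5.76 CPM in NrESC and 1.41 and 1.53 CPM in ESC (2.12, SE 0.16), and Irf8, a factor of the interferon list, had 2.64 and 3.05 CPM in NrESC and 0.617 and 0.694 CPM in ESC (2.11, SE 0.19). For Irf8 the ESC libraries of passage 0 had 2.57 and 2.79 CPM, which overlaps the NrESC values. The high genes Btg3, Ubap1l and Acvrl1 were low transcripts, at 9 CPM or less in each library, and rose by 2.45, 2.02 and 1.96 (SE 0.56, 0.14 and 0.2).

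The test of passage 10 against passages 6 and 12 also singled out genes beyond hypoxia and glycolysis. Of the 718 genes with a higher difference at passage 10, 92 differed by 2-fold or more, against 9 of the 838 with a lower one. Leaving out 1 library of passage 10 left 470 to 516 higher and 467 to 567 lower, the fewest higher without ESC replicate 1, and 467, 490 and 536 lower without NrESC replicate 1, ESC replicate 1 and ESC replicate 2. Without NrESC replicate 2 the count lower by 2-fold or more was 17. Cacna1h led, with 2.46 (SE 0.28, adjusted p = 1.05e-08). Its level at passage 10 differed from the mean of passages 6 and 12 by 1.09 in NrESC and by -1.37 in ESC, but these 2 passages were unlike. At passages 6, 10 and 12 in turn it averaged 0.868, 4.32 and 4.79 CPM in NrESC. In ESC it averaged 0.638, 0.569 and 3.31 CPM. Rps27 followed with 2.13 (adjusted p = 0.0103) and is uncertain, since the ESC libraries of passage 12 had 0.701 and 7.46 CPM, against 1.45 and 1.37 CPM in NrESC. After it came Ndufa4l2 and Loxl2, with 2.04 (SE 0.1, adjusted p = 2.65e-19) and 1.86 (SE 0.11, adjusted p = 4.23e-17). In ESC, Ndufa4l2 averaged 6.00, 8.33 and 25.6 CPM and Loxl2 5.51, 7.42 and 24.2 CPM at passages 6, 10 and 12. Aoc3, an amine oxidase, Igfbp4, which binds insulin-like growth factors, and the kinesin Kif19a had 1.81, 1.79 and 1.75 (adjusted p = 1.11e-07, 1.59e-08 and 4.6e-06). At the low end the neuropeptide precursor Trh had 77.7 and 74.2 CPM in the NrESC libraries, against 196 and 194 CPM in the ESC libraries at passage 10 and a difference of -0.85 (SE 0.042, adjusted p = 2.01e-19). In NrESC its level differed from that of passages 6 and 12 by -0.015 (adjusted p = 0.847), and in ESC by 0.83 (adjusted p = 3.07e-25). The transglutaminase Tgm3, Soga3 and Enox1 had -1.37, -1.31 and -0.89 (adjusted p = 1.15e-05, 1.24e-07 and 2.53e-06), and in each of them the ESC level of passage 10 was the one that was higher, by 0.99, 1.26 and 1.12. Within NrESC 678 genes were higher (4.51%) and 660 lower (4.39%) at passage 10 than in the mean of passages 6 and 12, against 2059 (13.7%) and 1692 (11.3%) within ESC, and the difference between these counts was not tested.

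**Figure D5:**
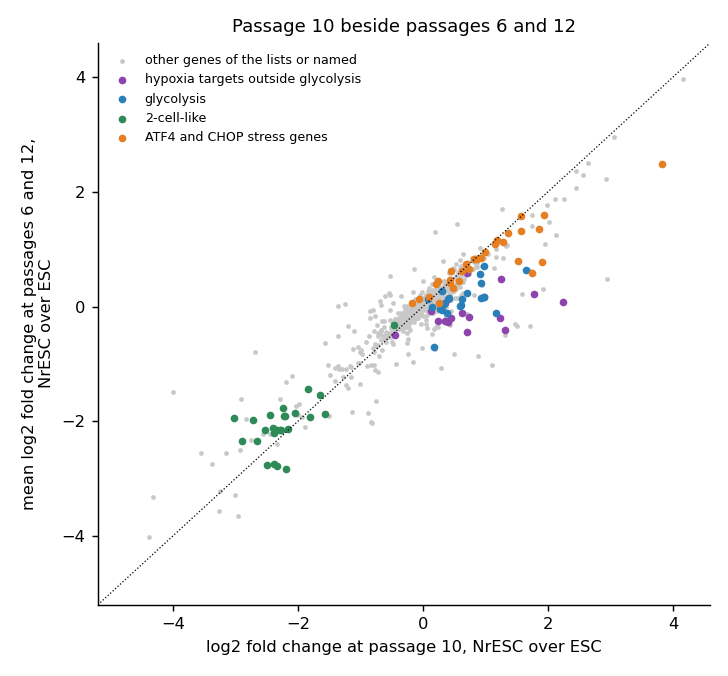
Mean log2 fold change, NrESC over ESC, at passages 6 and 12 (vertical) against that at passage 10 (horizontal) for the genes of the lists and those named, with 4 lists in colour and the line of equal values dotted. Most hypoxia and glycolysis genes lie below the line at the right, with medians of 0.74 and 0.46 for the difference, whereas most 2-cell-like and ATF4 genes lie near it.

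Differences of passage 10 from passages 6 and 12 had medians nearer 0 in the lipid and 2-cell-like lists than among the hypoxia targets, where the median was 0.74, and some of their genes were called. Abcg1 and Abca1 differed from passages 6 and 12 by 0.19 (adjusted p = 0.209) and 0.093 (adjusted p = 0.143), and the medians of this difference were 0.0084 for cholesterol synthesis, 0.079 for fatty acid synthesis and -0.18 for 2-cell-like genes. Among sterol targets of LXR 5 of 14 were called higher in this test and none lower, with a median of 0.16, and Vldlr had the largest difference of them, 1.13. The lipogenic targets had 3 of 16 higher and 2 lower, with a median of 0.11. Over all genes tested 4.78% were higher and 5.57% lower. Scd1 and Scd2 passed, with 0.26 (SE 0.031, adjusted p = 6.15e-08) and 0.21 (SE 0.024, adjusted p = 7.17e-09), as did Fasn in the other direction with -0.18 (SE 0.028, adjusted p = 1.06e-05). Over all genes, 968 were higher in NrESC at passage 10 and at each of the 7 other passages (6.44%), and 751 were lower at all 8 (4.99%).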

How the data were processed

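PolyA RNA of 32 libraries was sequenced by the submitters, and 2 tables of the whole series were used. Both are RSEM output per gene symbol, per the file headers: the authors' expected counts, of which 0.837% were fractional, and the authors' deposited TPM. The submitters' processing notes also name the build mm9, the aligner STAR, edgeR, DESeq2, HTSeq 0.12.4 and Cufflinks 2.2.1, without saying which made these tables. RSEM divides reads among similar genes, which leaves near-identical copies uncertain. Expected counts were rounded to whole numbers. Genes with low counts were removed by filterByExpr, which left 15036 of 24890 symbols. edgeR 4.0.16 in R 4.3.3 (TMM scaling, quasi-likelihood test, 16 groups in 1 model, 16 residual degrees of freedom, Benjamini-Hochberg threshold 0.05) gave fold changes and F statistics. Its script was tested on simulated data. Each SE was derived as the size of the log2 fold change divided by the square root of F. A second contrast took the passage 10 difference minus the mean of those at passages 6 and 12. CPM are TMM-scaled; TPM served for levels between genes. DESeq2 1.42.0, RLE scaling, no filter, a replicate block, a 1.2-fold test, other reference passages, the 4 libraries alone and leaving out libraries were the alternatives.

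The lists and their members, 776 symbols in 39 lists of which 714 were tested, were chosen with earlier results of these data known. Named by rule were the 15 highest and 15 lowest called fold changes whose log2 CPM averaged 1 or more over all libraries, the 8 highest and 8 lowest called differences from passages 6 and 12, for each list the 3 members of lowest p, and Abca1, Abcg1, Srebf1, Nanog, Pou5f1, Sox2, Zscan4c and Dppa2. A few of these genes are not reported here. Other list members were picked for the text after their values were seen. Promoter sequences are RefSeq's on GRCm38.p6, were matched by symbol for 572 of the 776, and were not placed on the build of the reads. Replicate numbers were not used as pairs.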

Additional observations from a re-analysis of the deposited data

Results flagged for a closer look

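For 16 genes the test of the difference itself set the NrESC over ESC fold change of passage 10 apart from the mean of those at passages 6 and 12. They are the 8 highest and 8 lowest called values of that test among genes whose log2 CPM averaged 1 or more, so their size is a description. On the high side stood Cacna1h (2.46), Rps27 (2.13), Ndufa4l2 (2.04), Loxl2 (1.86), Aoc3 (1.81), Igfbp4 (1.79), Kif19a (1.75) and Bnip3 (1.72), all on the log2 scale. Rps27, a ribosomal protein gene, had 1.88 and 4.15 CPM in NrESC and 1.09 and 1.71 CPM in ESC and NrESC replicates that lay farther apart than the means of the arms. At passage 12, which enters the same test, its libraries had 1.45 and 1.37 CPM in NrESC, against 0.701 and 7.46 CPM in ESC, and the test was not repeated without the highest of these. RSEM can divide its reads among near-identical copies, and the call was lost without NrESC replicate 2 or without ESC replicate 1 (adjusted p of 0.198 and 0.0919). Aoc3 had 3.23 and 3.22 CPM in NrESC and 1.33 and 1.24 CPM in ESC, Igfbp4 had 6.70 and 6.11 CPM in NrESC and 2.37 and 2.23 CPM in ESC and Kif19a had 2.18 and 1.93 CPM in NrESC and 1.28 and 0.925 CPM in ESC.

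On the low side stood Tgm3 (-1.37), Soga3 (-1.31), Zfp951 (-0.98), Enox1 (-0.89), Ido2 (-0.86), Trh (-0.85), Fgfbp1 (-0.79) and Anxa3 (-0.74). For Tgm3, Soga3, Enox1 and Trh the ESC level of passage 10 was called higher than that of passages 6 and 12, while the NrESC level was not called different. Zfp951 depended on the NrESC replicates, at 1.83 and 1.16 CPM, with differences of -1.38 without replicate 1 and -0.72 without replicate 2. For Fgfbp1, a carrier of fibroblast growth factors, with 3.07 and 2.25 CPM in NrESC and 3.01 and 2.89 CPM in ESC, passage 10 itself gave no called difference between the arms (-0.14, SE 0.16, adjusted p = 0.482). Anxa3, an annexin, had 1.75 and 1.58 CPM in NrESC and 2.42 and 3.47 CPM in ESC at passage 10.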

How the results depend on the processing

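The test against 1.2-fold left 1838 genes higher and 1476 lower at passage 10. Under the other alternatives these counts stayed within 1.5 times, with 3343 to 3542 higher and 3632 to 3777 lower when 1 library was left out, and 3534 higher and 3944 lower in DESeq2. Of the 8345 genes called, 6822 to 7130 kept their call without 1 library and 7475 in DESeq2. The difference from passages 6 and 12 moved more. With passages 2, 4, 6, 12 and 14 as its base, 1402 genes were higher and 1745 lower, 191 and 34 of them by 2-fold or more. Without 1 library 470 to 516 were higher, 467 to 567 lower and 8 to 17 lower by 2-fold or more. DESeq2 gave 57 higher and 4 lower by 2-fold or more, and no filter on low counts gave 14 lower by 2-fold or more; the cause was not tested. Medians of lists without 1 library ran from 0.68 to 0.80 for lipogenic LXR targets, 0.43 to 0.51 for fatty acid synthesis, 0.83 to 0.88 for ATF4 and CHOP genes and 0.61 to 0.76 for hypoxia targets. Fgfbp1, not called at passage 10 (-0.14), ran from -0.39 to 0.054 there without 1 library, above 0 without NrESC replicate 2. Samples with the same replicate number did not deviate together (correlation 0.0195 at passage 10), and the replicate block gave 4042 higher and 4263 lower at passage 10 and 709 higher and 818 lower in the difference. Named genes with libraries below 1 CPM, such as Aass, Cdx2, Dppa3, Dlk1, H2-Eb1 and Car9, rest on few counts there, for example 17 and 14 for Aass in NrESC.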
